A study of Mus musculus with 6 samples.

Results

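The genes described are 8 members of the hypoxia pathway of the mouse: the transcription factor subunits Hif1a and Epas1, the oxygen-sensing hydroxylases Egln1 and Egln3, and the hypoxia targets Vegfa, Adm, Bnip3 and Kdm3a. They were chosen by name, and every peak whose annotated gene is one of them was taken, at a transcription start or away from it. This gave 18 of the 17901 peaks of the deposited table. Hif1a and Egln3 had 4 peaks each, Epas1 and Adm 3 each, Egln1 2, and Bnip3 and Kdm3a 1 each. Vegfa had none.

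The peaks carry acetylation of histone H3 (H3K9ac), a mark of active promoters and enhancers, measured in isolated mouse lung endothelial cells by CUT&RUN, in which an antibody-tethered nuclease releases the bound DNA for sequencing. The 3 CSE-KO libraries are labelled Cre-pos and the 3 WT libraries Cre-neg. CSE is cystathionine gamma-lyase, an enzyme that makes cysteine, and the question of the comparison is how its loss alters H3K9ac. As Cre follows the groups, presence of Cre and loss of CSE cannot be told apart. The Cre driver, the targeted allele, the mice's age and sex, the oxygen level and whether cells were pooled are not given in the labels. Nothing there tells whether libraries of a group are separate animals, and each p-value reflects only how the libraries scatter, which may be technical.

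HIF1A and EPAS1 (also called HIF2A) are the oxygen-regulated subunits of the hypoxia-inducible factors. When oxygen is present, EGLN enzymes hydroxylate them on proline, the VHL ubiquitin ligase then recognises them, and they are degraded. When oxygen falls they pair with ARNT and bind a short DNA core, A or G followed by CGTG, near genes of blood vessel growth, glycolysis and mitochondrial turnover. EPAS1 is known for its high expression in lung endothelium.

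Only Hif1a, Adm, Bnip3 and Kdm3a had a peak over an annotated start, so the DNA before those starts is shown. Each sequence is the 250 bases before the start in RefSeq on GRCm38.p6, 5′ to 3′ on the gene's strand, with capitals marking ACGTG or GCGTG on either strand (read as CACGT or CACGC on the opposite one). In CACGTG, 2 matches overlap, 1 on each strand. The windows are chr12:73907617-73907866 (+) for Hif1a, chr7:110627407-110627656 (+) for Adm, chr7:138909507-138909756 (-) for Bnip3 and chr6:71632918-71633167 (-) for Kdm3a.
Hif1a: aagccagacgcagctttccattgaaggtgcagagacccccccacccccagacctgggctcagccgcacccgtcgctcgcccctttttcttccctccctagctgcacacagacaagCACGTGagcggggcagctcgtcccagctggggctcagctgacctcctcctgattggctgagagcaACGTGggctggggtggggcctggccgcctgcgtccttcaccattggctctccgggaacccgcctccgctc
Adm: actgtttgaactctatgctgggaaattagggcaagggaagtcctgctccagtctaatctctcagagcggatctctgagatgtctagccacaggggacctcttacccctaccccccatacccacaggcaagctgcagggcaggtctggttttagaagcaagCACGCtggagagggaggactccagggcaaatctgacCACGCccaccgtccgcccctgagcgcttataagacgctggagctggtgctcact
Bnip3: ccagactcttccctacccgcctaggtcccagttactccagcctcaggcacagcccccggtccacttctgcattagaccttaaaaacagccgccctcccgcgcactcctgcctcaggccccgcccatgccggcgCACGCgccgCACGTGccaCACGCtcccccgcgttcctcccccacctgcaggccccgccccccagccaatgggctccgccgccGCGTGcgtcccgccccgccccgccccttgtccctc
Kdm3a: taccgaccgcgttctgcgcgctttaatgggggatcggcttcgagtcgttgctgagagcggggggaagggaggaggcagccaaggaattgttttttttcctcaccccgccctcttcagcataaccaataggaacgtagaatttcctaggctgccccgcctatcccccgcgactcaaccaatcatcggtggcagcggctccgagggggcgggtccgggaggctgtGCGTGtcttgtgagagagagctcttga

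The Bnip3 window held 5 matches, Hif1a 3, Adm 2 and Kdm3a 1. The second Kdm3a start under the same peak, chr6:71632687-71632936, had none. Of the 10 RefSeq windows available here for 7 of the genes, 7 held at least 1 match, as did 38.6% of all 32851 windows of that length. No window was available here for Epas1. At least 5 matches were found in 1.01% of all windows. A match of letters describes the sequence and is not evidence of binding.

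The peaks were of very different kinds. The Adm peak (chr7:110627499-110629959) covers the whole of this short gene, is 2461 bp long, and was longer than 98.9% of all peaks. The Hif1a peak over the start (chr12:73907547-73909374, 1828 bp) is annotated as a CpG island in intron 1. The Kdm3a peak (chr6:71632034-71633525) and the Bnip3 peak (chr7:138909127-138909793, 667 bp) are annotated as promoters. The other 14 peaks had their centres 2.6 to 220 kb from the nearest start, in introns or between genes.

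Some distal peaks carry a gene name by distance alone. A peak 218 kb before the Epas1 start lies in intron 10 of Prkce (chr17:86536148-86536479), and a peak 220 kb after the Egln3 start lies in intron 6 of Npas3 (chr12:53984058-53984342). The 3 upstream Hif1a peaks lie between genes, 100 to 122 kb before the more upstream of its 2 annotated starts. Assignment of a distal peak to its gene was not tested.

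Vegfa, the growth factor of endothelial cells, lies at chr17:46016993-46032377. The nearest peaks were those of Mrpl14, 324.8 kb away on one side, and Mrps18a, 78.4 kb away on the other, and the deposited peak numbers of these 2 are consecutive. H3K9ac at Vegfa is therefore not analysed here. No peak covered the starts of Egln1 and Egln3 either, and the peak numbers about both genes are also consecutive. About Epas1, 2 peak numbers have no row in the table, and about Bnip3 and Kdm3a 1 each. These are not analysed here.

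**Figure D1:**
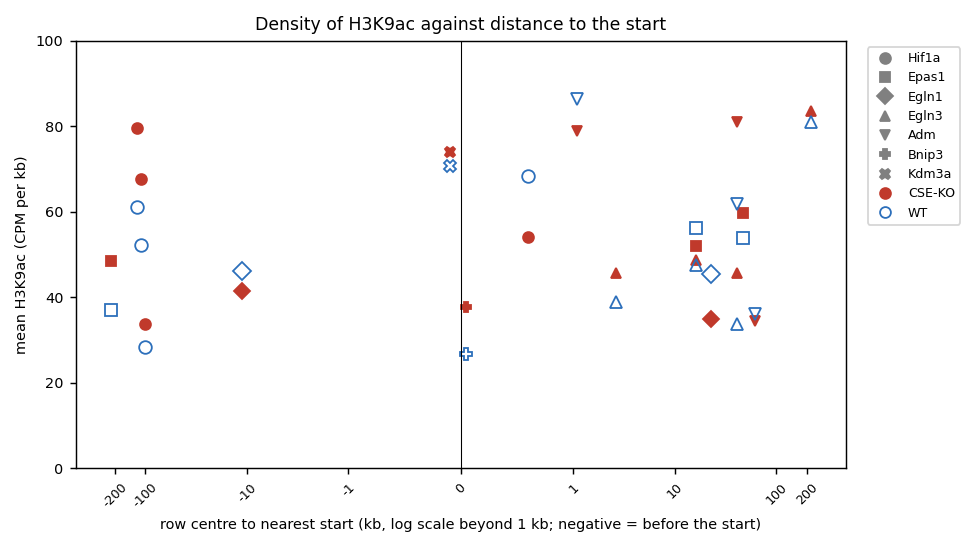
Mean H3K9ac density in CPM per kb of peak (vertical axis) against the distance from the peak's centre to the nearest start (horizontal axis, log scale beyond 1 kb), for all 18 peaks. Filled red symbols are means of 3 CSE-KO libraries and open blue symbols means of 3 WT libraries. The Bnip3 peak at its start is among the least dense, at 37.6 CPM per kb in CSE-KO and 26.8 in WT.

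Total counts over all peaks were 679938 to 1173016 in CSE-KO and 313610 to 676056 in WT, with the deepest WT library just below the shallowest CSE-KO library. WT replicate 2, the shallowest, correlated least with the other 5 libraries over all peaks (mean r of 0.788, against 0.838 to 0.852 for the rest). All 20 endothelial markers listed for the check had a peak, with summed levels of 4025 to 4459 CPM in CSE-KO and 4321 to 4738 CPM in WT. Of the lung epithelial markers 5 of 14 had one (296 to 339 CPM in CSE-KO, 327 to 357 in WT), of the immune markers 3 of 14 (88.1 to 105 in CSE-KO, 86.3 to 102 in WT) and of the mesenchymal markers 1 of 13 (22.4 to 51.8 in CSE-KO, 33.0 to 46.9 in WT). Sftpc, Nkx2-1, Ptprc, Cd3e, Pdgfra and Col1a2 had none. CPM are counts relative to library size, with TMM (trimmed mean of M-values) factors applied to the sizes.

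No peak of these genes passed the test between CSE-KO and WT. Of the 18 peaks, 16 passed the count filter and none was called at an adjusted p under 0.05 (edgeR quasi-likelihood test, Benjamini-Hochberg), where 0.0868% of all 16134 tested peaks were called. None had an unadjusted p under 0.05 with all 6 libraries and these settings, which 7.08% of all tested peaks had. Under the alternatives 1 peak, over the Hif1a start, had one. The 3 libraries of CSE-KO and of WT did not overlap at 2 of the 16, as at 13.0% of all tested peaks. At both CSE-KO was higher, as at 6.09% of all tested peaks. The median log2 fold change was 0.12 over the 16 peaks and -0.00034 over all tested peaks. Scaling to library size holds the latter near 0, so a change shared by all peaks would not show here.

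**Figure D2:**
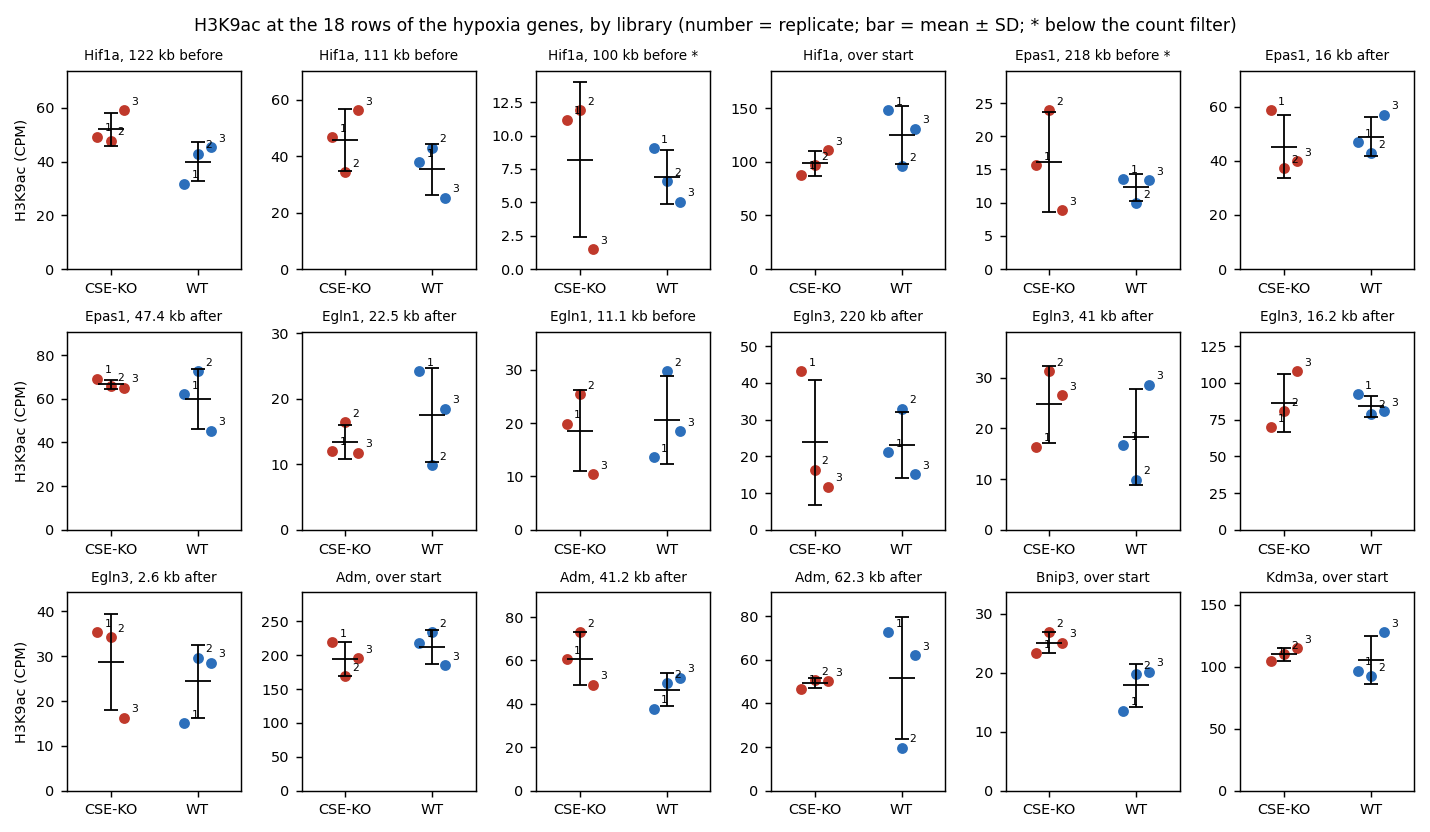
H3K9ac in CPM at each of the 18 peaks, 1 point per library with its replicate number, CSE-KO in red and WT in blue, black bars giving the mean ± SD of 3 libraries. The groups are apart at the Hif1a peak 122 kb before its start (lowest CSE-KO library 47.8, highest WT library 45.4) and at Bnip3 (23.3 and 20.2).

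At the Hif1a start, H3K9ac was 88.1, 97.0 and 111 CPM in CSE-KO replicates 1 to 3, against 148, 95.7 and 131 CPM in WT replicates 1 to 3. The groups overlapped, because WT replicate 2 lay among the CSE-KO libraries. The mean was 98.7 ± 11.5 CPM in CSE-KO and 125 ± 26.9 in WT (SD, n = 3 each). The fitted log2 fold change was -0.40, with an SE of 0.20, a 95% interval from -0.80 to 0.01 and an adjusted p of 0.715 (edgeR). This was the smallest adjusted p of the 16 peaks. Without WT replicate 2, the library that stands apart, the log2 fold change was -0.52 (edgeR unadjusted p = 0.0131, adjusted p = 0.571), and without WT replicate 1 it was -0.25 (edgeR adjusted p = 0.851). The unadjusted p, 0.0529 with all libraries, was 0.0377 without CSE-KO replicate 3, 0.0492 with no filter (edgeR) and 0.0317 with voom (limma), and the adjusted p stayed above 0.05 in each.

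The upstream Hif1a peaks had fitted values on the other side of 0. The peak 122 kb before the start (chr12:73779351-73780004) had 49.2, 47.8 and 59.1 CPM in CSE-KO, against 31.8, 42.9 and 45.4 CPM in WT. Every CSE-KO library was above every WT library there, and the log2 fold change was 0.39 (SE 0.30, edgeR adjusted p = 0.83). The peak 111 kb before the start (chr12:73790328-73791003) had 46.7, 34.3 and 56.2 CPM in CSE-KO and 37.8, 42.9 and 25.2 CPM in WT (log2 fold change 0.41, SE 0.33). Its groups overlapped. The value of the first was 0.22 without WT replicate 1, and that of the second 0.25 without CSE-KO replicate 3 and 0.20 without WT replicate 3. The peak 100 kb before the start held 13, 8 and 1 counts in CSE-KO and 6, 2 and 3 in WT and was below the filter.

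Over its 4 peaks together Hif1a was close to even between CSE-KO and WT. The summed level was 194, 189 and 226 CPM in CSE-KO, against 224, 185 and 203 CPM in WT, with a fitted log2 value of -0.03 (SE 0.15, 95% interval -0.33 to 0.26, edgeR adjusted p = 0.989 over all genes). With the peak at the start alone it was -0.38, and with the upstream peaks alone 0.38, neither of them called. The peak at the start held 45.1%, 50.8% and 48.7% of the Hif1a counts in CSE-KO, against 65.3%, 50.9% and 63.4% in WT. WT replicate 2 lay beside the CSE-KO libraries, with an exact 95% binomial interval of 37.3% to 64.4% from its 57 counts. Such intervals cover counting error only. The difference between start and upstream peaks was noticed in these values and was not tested.

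**Figure D3:**
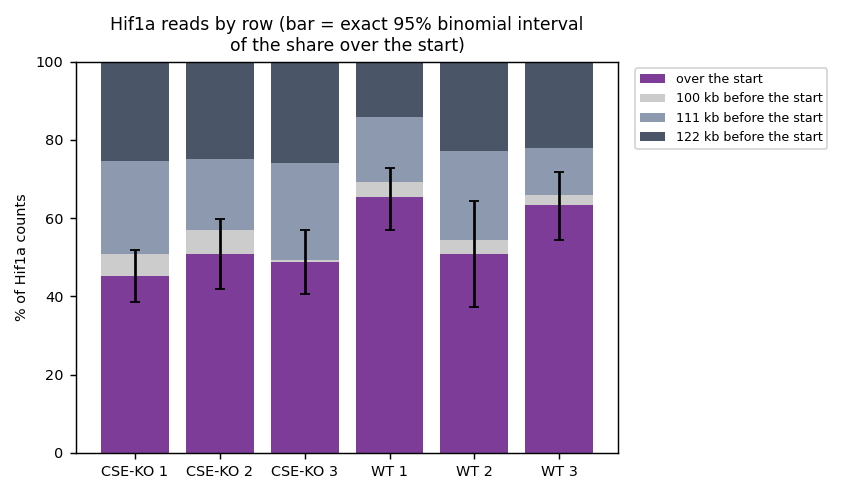
Share of the Hif1a counts, in percent, that fell in each of its 4 peaks, 1 stacked bar per library, CSE-KO left of WT, with the exact 95% binomial interval of the share over the start. That share is 45.1% to 50.8% in CSE-KO and 50.9% to 65.3% in WT.

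Epas1 had its most abundant peak in intron 2, 47.4 kb after the start (chr17:86800669-86801784). It had 69.1, 65.7 and 65.1 CPM in CSE-KO, against 62.1, 72.6 and 45.4 CPM in WT (log2 fold change 0.19, SE 0.26, edgeR adjusted p = 0.92). The CSE-KO libraries lay within the range of the WT libraries. The peak in intron 1, 16 kb after the start (chr17:86769426-86770298), had 58.7, 37.3 and 39.9 CPM in CSE-KO and 46.9, 42.9 and 57.1 CPM in WT. Its groups overlapped too, with a log2 fold change of -0.10 (SE 0.30). The peak within Prkce held 6 to 18 counts in CSE-KO and 3 to 9 in WT and was below the filter. Summed over its peaks Epas1 had 142, 125 and 113 CPM in CSE-KO and 121, 123 and 114 CPM in WT, and a log2 fold change of 0.10 with a 95% interval of -0.26 to 0.47.

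Egln1 encodes PHD2, the main HIF prolyl hydroxylase of most cells, and had 2 faint peaks. The intron 1 peak (chr8:124926533-124926918) held 14, 11 and 8 counts in CSE-KO and 16, 3 and 11 in WT, or 12.1, 16.4 and 11.8 CPM against 24.2, 9.90 and 18.5. The peak 11.1 kb before the start (chr8:124960128-124960573) had 19.9, 25.4 and 10.4 CPM in CSE-KO and 13.6, 29.7 and 18.5 CPM in WT. The groups overlapped at both. Their 95% intervals of the log2 fold change, -1.48 to 0.52 and -1.01 to 0.92, do not exclude a 2-fold loss at either.

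Egln3 encodes PHD3, a hydroxylase whose gene is itself induced by hypoxia. Its most abundant peak, in intron 1 and 16.2 kb after the start (chr12:54186756-54188521), had 70.0, 80.6 and 108 CPM in CSE-KO, against 92.3, 79.2 and 80.6 CPM in WT. The WT libraries lay within the range of the CSE-KO libraries, and the 95% interval of the log2 fold change was -0.47 to 0.47. The intron 1 peak 2.6 kb after the start (chr12:54200960-54201586), annotated to a simple repeat, had 35.4, 34.3 and 16.3 CPM in CSE-KO and 15.1, 29.7 and 28.6 CPM in WT. The peak 41 kb after the start (chr12:54162647-54163190) had 16.4, 31.3 and 26.6 CPM in CSE-KO and 16.7, 9.90 and 28.6 CPM in WT. Both overlapped between groups, with a log2 fold change of 0.31 each (SE 0.41 and 0.45). With 1 library left out, the value at 2.6 kb lay between 0.01 (without WT replicate 1) and 0.56 (without CSE-KO replicate 3), and that at 41 kb between 0.10 (without WT replicate 2) and 0.76 (without WT replicate 3).

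At the Egln3 peak within Npas3, CSE-KO replicate 1 stood apart, with 43.2 CPM beside 16.4 and 11.8 CPM in the other CSE-KO libraries and 21.2, 33.0 and 15.1 CPM in WT. Its log2 fold change was 0.22 with all libraries and -0.63 without CSE-KO replicate 1. Summed over the 4 Egln3 peaks the libraries were close together, 164, 161 and 161 CPM in CSE-KO against 144, 149 and 150 CPM in WT. Every CSE-KO library was above every WT library, but how often this holds over all summed genes was not counted. The fitted log2 fold change was 0.13 (SE 0.16, 95% interval -0.19 to 0.46). Its adjusted p was 0.929 over all genes (edgeR).

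**Figure D4:**
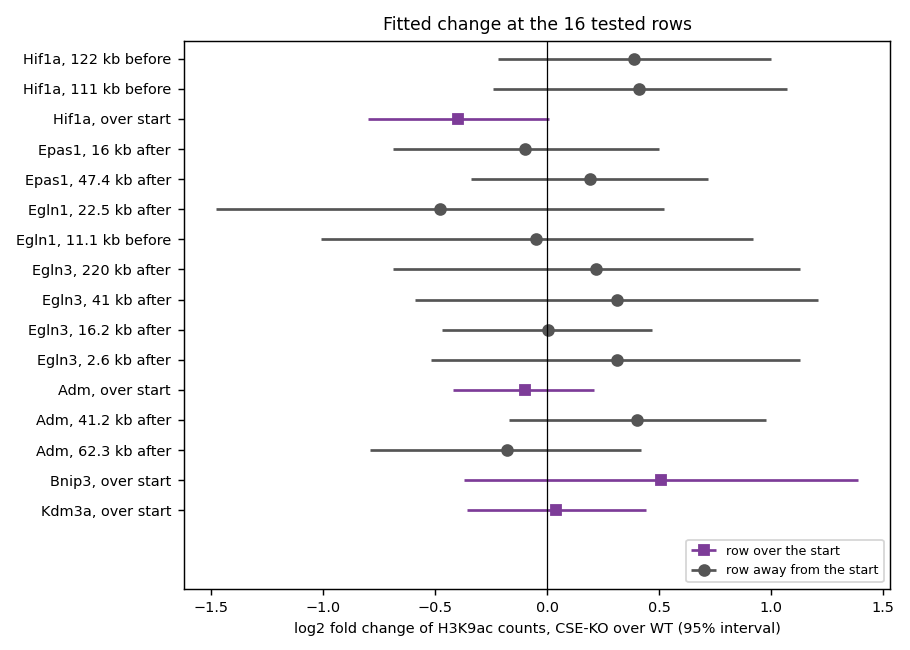
Log2 fold change of H3K9ac counts, CSE-KO over WT (horizontal axis), with its 95% interval, at the 16 tested peaks, squares for peaks over a start and circles for the others. All 16 intervals include 0, the one at the Hif1a start ending at 0.01.

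Among the targets, Adm encodes adrenomedullin, a vasodilator peptide that endothelial cells secrete, and its peak over the start was the most abundant of the members. It had 219, 169 and 195 CPM in CSE-KO, against 218, 234 and 185 CPM in WT, and its mean CPM stood above 98.3% of all peaks. The groups overlapped (log2 fold change -0.10, SE 0.16, edgeR adjusted p = 0.928), and the 95% interval in linear terms was 0.75- to 1.16-fold. The peak 41.2 kb after the start (chr7:110668460-110669211) had 60.5, 73.1 and 48.8 CPM in CSE-KO and 37.8, 49.5 and 52.1 CPM in WT (log2 fold change 0.40, SE 0.29). The peak 62.3 kb after the start (chr7:110689202-110690632) had 46.7, 50.7 and 50.3 CPM in CSE-KO and 72.7, 19.8 and 62.2 CPM in WT. WT replicate 2, with 6 counts there, was the low library, and the log2 fold change was -0.18 with all libraries and -0.47 without that replicate.

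Bnip3, a receptor that marks mitochondria for removal in hypoxia, had 23.3, 26.9 and 25.1 CPM in CSE-KO, against 13.6, 19.8 and 20.2 CPM in WT. The groups did not overlap, but the counts were low, 17 to 27 in CSE-KO and 6 to 12 in WT. The log2 fold change was 0.51 (SE 0.44, 95% interval -0.37 to 1.39, edgeR adjusted p = 0.858). Per kb of peak, the mean over all libraries was 32.2 CPM, above 3.85% of all peaks.

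Kdm3a, a demethylase that removes methyl groups from the same H3 residue that H3K9ac acetylates, had 105, 110 and 115 CPM in CSE-KO, against 96.9, 92.4 and 128 CPM in WT. The CSE-KO libraries lay within the WT range. The log2 fold change was 0.04 (SE 0.20, edgeR adjusted p = 0.988), with a linear interval of 0.78- to 1.36-fold.

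Set in order of density over all libraries, the Adm start peak had 82.6 CPM per kb and the Egln3 peak within Npas3 82.3, followed by Kdm3a at 72.4, the Adm peak at 41.2 kb at 71.3, the Hif1a peak at 122 kb at 70.4 and the Hif1a start peak at 61.2. The Epas1 intron peaks had 56.7 and 54.0 CPM per kb, the Egln1 peaks 43.9 and 40.1, and Bnip3 32.2. For each of the 17 neighbouring pairs in this order the ranges over the 6 libraries overlapped. Such overlap is likely for neighbours in a ranking, and differences between them within each library were not tested. The lowest library at the Adm start peak (68.5 CPM per kb) was above the highest at Bnip3 (40.3). Of the 7 genes with a peak none was called on its summed counts, where 0.123% of 10569 tested genes were called (edgeR quasi-likelihood test, adjusted p). The fitted log2 fold changes of the summed counts ran from -0.24 at Egln1 (95% interval -0.94 to 0.46) to 0.52 at Bnip3 (-0.36 to 1.39), and all 7 intervals include 0.

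Among the other genes of the pathway none was called. Of 13 further HIF subunits, hydroxylases and VHL ligase genes, 10 had a peak, with 12 tested peaks and a median log2 fold change of -0.09. An unadjusted p under 0.05 was found at 2 of the 12, or 16.7%, against 7.08% of all tested peaks. Of these, 1 was higher and 1 lower in CSE-KO. The lower one lies over the start of Arnt, the common partner of HIF1A and EPAS1 (chr3:95433921-95435306). It had 83.8, 88.1 and 73.9 CPM in CSE-KO, against 129, 119 and 131 CPM in WT. The CSE-KO libraries were all below the WT libraries. Groups without overlap, in either direction, were found at 13.0% of all tested peaks. The fitted log2 fold change at the Arnt start was -0.63 (SE 0.20), and the adjusted p was 0.446 (edgeR), so it did not pass.

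The higher one lies 61.9 kb before the start of Siah1a, a ubiquitin ligase known to target EGLN proteins (chr8:86807376-86808372). It had 61.3, 56.7 and 65.1 CPM in CSE-KO and 22.7, 36.3 and 40.3 CPM in WT (log2 fold change 0.91, SE 0.31, edgeR adjusted p = 0.498). Hif1an, which encodes the asparagine hydroxylase FIH, had -0.58 (SE 0.35) and Rbx1, a subunit of the VHL ligase, 0.29 (SE 0.21).

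Of 11 coactivators and competitors of HIF, 8 had a peak, with 11 tested peaks and a median log2 fold change of -0.07. Ncoa1, a coactivator, had 14.7, 16.4 and 17.7 CPM in CSE-KO and 15.1, 49.5 and 43.7 CPM in WT (log2 fold change -1.08, SE 0.44, edgeR adjusted p = 0.637). Its groups overlapped. Ep300, the acetyltransferase recruited by HIF, had -0.18 (SE 0.15). Its competitor Cited2 had -0.22 (SE 0.22) at a peak near the start and 0.19 (SE 0.30) at a distal one. Ncoa2 had 0.35 (SE 0.32) at a peak 5.46 kb after the start and 0.14 (SE 0.22) at one nearer to it.

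Of 64 further hypoxia targets, 45 had a peak, with 89 tested peaks and a median log2 fold change of -0.02. An unadjusted p under 0.05 was found at 4 of the 89, or 4.49%, against 7.08% of all tested peaks. A faint peak 8.09 kb after the start of Ddit4, an inhibitor of mTORC1, had 6.05, 14.9 and 1.48 CPM in CSE-KO and 33.3, 23.1 and 18.5 CPM in WT (log2 fold change -1.77, SE 0.56, edgeR adjusted p = 0.435). A peak in intron 1 of Tek, the angiopoietin receptor gene, lay 37.1 kb after the start. It had 25.1, 22.4 and 29.6 CPM in CSE-KO and 7.57, 16.5 and 10.1 CPM in WT (log2 fold change 1.27, SE 0.49). The groups did not overlap at either peak, as at 13 of the 89 and at 13.0% of all tested peaks. The other tested Ddit4 peaks had -0.40 (SE 0.51) and, nearer the start, 0.04 (SE 0.24). The other tested Tek peaks, all nearer the start, had -0.23, -0.10 and -0.82 (SE 0.29, 0.34 and 0.53). A Rora peak, in intron 1 and 190 kb before the nearest start, had a log2 fold change of -1.05 (SE 0.45), and its groups overlapped. The value was -0.52 without WT replicate 2, -0.64 when CSE-KO replicate 1 was left out and -1.70 when CSE-KO replicate 2 was, and DESeq2 gave an unadjusted p of 0.188. The other tested Rora peaks had -0.50 (SE 0.37) and, near the start, -0.31 (SE 0.40).

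**Figure D5:**
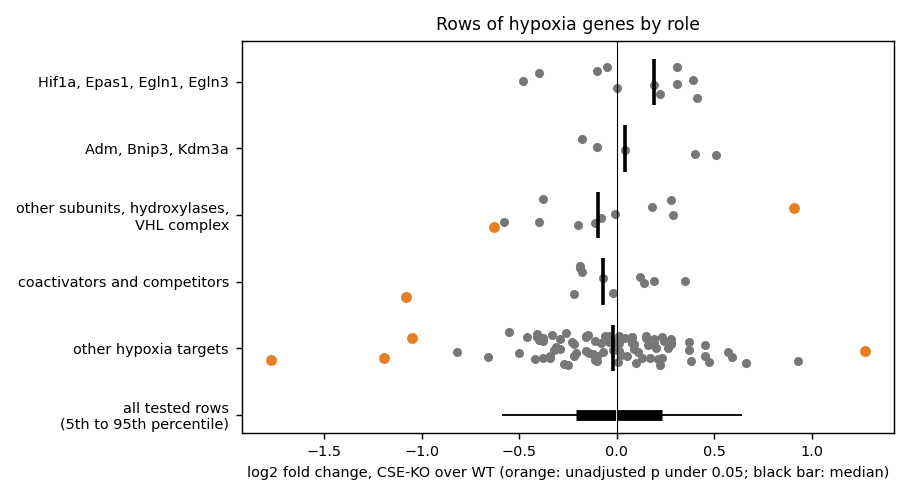
Log2 fold change, CSE-KO over WT (horizontal axis), of every tested peak of the hypoxia genes by role, with the median as a black bar and peaks of unadjusted p under 0.05 in orange. The bottom row gives the 5th to 95th percentile of all tested peaks, -0.59 to 0.64, as a line and the middle of the distribution, -0.21 to 0.23, as a thick bar.

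The peaks most like the Hif1a start peak across the 6 libraries, by root mean square difference of centred log2 CPM among 4610 peaks with a mean count of at least 50, were those of Snord42b (0.0609), Mlxip (0.0683) and Cd63 (0.0716), all at starts. The median difference over the compared peaks was 0.328. For the Epas1 peak in intron 2 they were Ap2b1 (0.0425), Ppp1r18 (0.0583) and Lmna (0.0636), with a median of 0.297.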

How the data were processed

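Every value here starts from the raw read counts that the authors deposited, a whole number for each peak in each of 6 libraries. The submitters' processing notes name DESeq2 1.36.0, featureCounts, Picard 3.1.1, STAR 2.7.11a and Trimmomatic 0.39, with neither order nor settings, and no peak caller is among them. Another 12 columns of per-sample values (normalized and RPKM) were not used. Per the file headers their names carry a different numeric prefix in CSE-KO and WT, so any batch behind these prefixes and the genotype cannot be told apart. The notes name mm39, but the deposited centres and distances gave a RefSeq GRCm38.p6 start within 100 bp for 96.7% of 13657 peaks, so coordinates are given as GRCm38. The table holds 17901 of 23867 numbered peaks, numbered by position.

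Counts were tested with edgeR 4.0.16 in R 4.3.3, after filterByExpr (minimum count 10) and TMM scaling, by the quasi-likelihood test with no term but the group. P-values are two-sided and were adjusted by Benjamini-Hochberg over 16134 peaks, and the test was repeated on counts summed by annotated gene. SEs come from the F statistic. The fits were tested on simulated data, with changes placed only at peaks and genes of higher mean count than the faint peaks here. That test gives no measure of what would be missed at those faint peaks. Alternatives were RLE factors, library size alone, DESeq2 1.42.0, voom (limma 3.58.1), other filters, a replicate block and leaving out each library. Replicate pairs within a group differed by more than sampling noise (chi-square 1.91 to 2.14 for each degree of freedom).

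Replicate numbers are shared between groups. Deviations of same-numbered libraries correlated at 0.065, 0.014 and 0.005, for replicates 1 to 3, against -0.036 to 0.019 for libraries of different number. The highest value was that of replicate 1, but all were small, so the numbers were not taken to pair libraries. A peak counts as over a start when it covers the start of a RefSeq window. With no window available, Epas1 peaks could not be counted so, and their deposited distances, 16 kb or more, were used. Of the gene lists, up to 4 genes with the smallest unadjusted p were named, except 1 that is not reported here. The members and lists were chosen with earlier results of these data known.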

Additional observations from a re-analysis of the deposited data

How the results depend on the processing

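None of the 16 tested peaks and no summed gene was called under any alternative run that tested it. Vegfa was in no run. The filter at a mean count of 50 kept only the start peaks of Hif1a, Adm and Kdm3a and the Egln3 peak at 16.2 kb. Promoter peaks alone tested only Hif1a, Adm, Bnip3 and Kdm3a. Of 430 recomputed values of the named peaks and genes, 405 kept their direction and their side of the threshold and 25 changed sign, with the cause not tested. The Egln3 peak 16.2 kb after its start was -0.0039 with no filter, -0.06 with voom and -0.18 to 0.15 with 1 library left out. The Egln1 peak before the start was 0.0036 with voom and -0.30 to 0.22 with 1 library left out. With 1 library left out, the Epas1 intron 1 peak lay between -0.36 and 0.03, the Egln3 peak within Npas3 between -0.63 and 0.51, the Adm peak at 62.3 kb between -0.47 and 0.11 and Kdm3a between -0.04 and 0.20. Summed over a gene, Hif1a lay between -0.11 and 0.04, Adm between -0.08 and 0.03 and Kdm3a between -0.04 and 0.22, while the distal peaks alone gave 0.38 at Hif1a and 0.10 at Adm.

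The Hif1a start peak stayed below 0 (-0.52 to -0.25), with an adjusted p of 0.571 to 0.939. With 1 library left out, the Epas1 intron 2 peak lay between 0.01 and 0.30, the Egln1 intron peak between -0.68 and -0.18, the Adm peak at 41.2 kb between 0.25 and 0.52 and Bnip3 between 0.32 and 0.64. The Arnt start peak lay between -0.67 and -0.57 with 1 library left out.

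Of all peaks 14 were called, 9 with DESeq2, 8 with a mean count of at least 50 and 6 to 13 with 1 library left out (6 without CSE-KO replicate 1, 8 without CSE-KO replicate 3, 7 without WT replicate 3). Of all genes 13 were called, 5 with DESeq2, 3 on promoter peaks alone, 4 on distal peaks alone and 5 to 9 with 1 library left out. The replicate block gave 15 peaks and 17 genes and changed no call of a member. The Egln1 and Bnip3 peaks and the Egln3 peaks other than that at 16.2 kb had mean counts of 10.5 to 18.5 and SEs of 0.41 to 0.50.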
